A study of Mus musculus with 9 samples.

Results

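The genes described here are 10 genes that mark white adipocytes, namely Adipoq, Plin1, Plin4, Cidec, Lep, Fabp4, Pparg, Lpl, Cfd and Retn. They were taken by symbol from a table of 22054 mouse genes, and each of the 10 symbols was found on 1 row. The table came from RNA-seq of femoral fracture callus, the repair tissue that bridges a break, collected on day 7 after surgery from male C57BL/6J mice aged 7 weeks. The study asked how the STING pathway, a sensor arm for DNA in the cytosol, affects healing, and all animals were fractured, pinned through the marrow cavity and injected into the peritoneum every day for 1 week with 200 μl of fluid. Of the 9 libraries, 3 came from mice given H-151 at 750 nmol, an inhibitor of STING, 3 from mice given SR-717 at 30 mg/kg, an activator of STING, and 3 from mice given PBS as control. No unfractured bone was among these libraries, and nothing in the sources used here says whether a library held the callus of a single mouse, so that p-values measure the spread between these libraries, which may be technical.

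A white adipocyte stores triglyceride in a large lipid droplet and releases hormones into the blood. PPARγ, encoded by Pparg, works with C/EBP factors to switch the program on during differentiation. In bone, adipocytes lie in the marrow beside blood-forming cells and arise from stromal cells that can also form osteoblasts. The 10 genes cover the regulator (Pparg), the proteins on the droplet surface (Plin1, Plin4 and Cidec), fatty acid delivery (Lpl and Fabp4) and the secreted proteins (Adipoq, Cfd, Retn and Lep). Not all are private to fat: as examples, Fabp4 is also made by macrophages and capillary endothelium, Lpl by macrophages and muscle, and Plin4 by muscle. Which cells of the callus made any of the 10 was not tested. In whole callus, fewer cells of a type and less RNA per cell cannot be told apart.

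The promoters of Cidec and Cfd are shown because this pair had the closest levels across libraries, as described later. That of Adipoq is shown because it encodes adiponectin, a hormone of adipocytes. Each is the 250 bases before the RefSeq start on GRCm38.p6, written 5′ to 3′ on the gene's own strand. Of the 10 genes, 8 had an entry (all but Fabp4 and Lpl). Capitals mark matches, on either strand, to a CCAAT box (CCAAT), a C/EBP site (TTGCNNAA), a TATA box (TATAAA), a nuclear receptor half-site (AGGTCA) or the PPAR-RXR direct repeat (AGGTCANAGGTCA), which itself contains the half-site. Adipoq lies at chr16:23146286-23146535 (plus strand), Cfd at chr10:79890603-79890852 (plus strand) and Cidec at chr6:113435761-113436010 (minus strand).
Adipoq: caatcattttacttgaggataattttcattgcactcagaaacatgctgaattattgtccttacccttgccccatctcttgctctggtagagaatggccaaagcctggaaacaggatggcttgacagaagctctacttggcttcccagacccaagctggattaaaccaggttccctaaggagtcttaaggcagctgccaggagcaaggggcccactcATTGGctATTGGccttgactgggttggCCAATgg
Cfd: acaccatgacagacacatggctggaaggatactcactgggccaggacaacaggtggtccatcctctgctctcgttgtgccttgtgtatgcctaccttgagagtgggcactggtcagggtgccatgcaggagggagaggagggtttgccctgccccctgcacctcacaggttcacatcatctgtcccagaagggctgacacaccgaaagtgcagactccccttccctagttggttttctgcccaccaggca
Cidec: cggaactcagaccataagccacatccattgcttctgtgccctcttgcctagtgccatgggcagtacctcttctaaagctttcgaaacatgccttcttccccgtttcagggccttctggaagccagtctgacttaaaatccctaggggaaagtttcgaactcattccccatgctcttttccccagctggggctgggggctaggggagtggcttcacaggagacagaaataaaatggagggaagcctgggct

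The Adipoq window held 3 CCAAT boxes, the closest with its last base at -3 from the start, while the windows of Cfd and Cidec held none of the 5 motifs, which says only that these letters were not there. A CCAAT box was found in 33.8% of 32851 mouse promoters of the same length, so that a match is common. The C/EBP site, found in 9.56% of promoters, occurred in the windows of Plin1 and Lep, before the other listed start of Cidec, and before 1 of the 3 listed starts of Pparg. The direct repeat, found in 0.0335% of promoters, was in none of the windows of the 8 genes, while its half-site (14% of promoters) was found at 2 of the Pparg starts. A match is a description of letters and not of binding.

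The libraries held 16987398 to 23272480 counts each, and the 20 highest genes took 16.1% to 20.8% of them. SR-717 replicate 1 stood apart on the first principal component, which held 46.6% of the variance (100.6, against 38.8 for PBS replicate 1 and -28.8 to -4.03 for the other libraries). Genes of bone and cartilage were present, but unevenly for cartilage. Summed osteoblast markers reached 25242 to 49681 CPM (counts scaled to library size). Summed chondrocyte markers were 267 CPM in SR-717 replicate 1, 1639 in PBS replicate 1 and 4699 to 16898 in the other libraries. CPM here was scaled by TMM over the 9 libraries, and 1 count was worth 0.0423 to 0.0584 CPM.

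To compare genes with each other, the deposited TPM, which corrects for transcript length, was used. Fabp4, the cytosolic fatty acid carrier, was the most abundant of the 10 with a mean TPM of 284 over the 9 libraries (range 182 to 330), and it was the only one whose range met that of no other. Lpl, the lipase that frees fatty acids from lipoproteins, followed at a mean TPM of 40.1 (29.1 to 59.6), and Cfd, the complement protease adipsin, at 38.1 (5.92 to 98.6). Adipoq, the hormone adiponectin, came next at a mean TPM of 11.8 (3.12 to 29.2). Lower still were Pparg at 5.77, Plin4 at 4.90, Cidec at 2.18, Plin1 at 1.93, Retn at 1.03 and Lep at 0.096 mean TPM. From Lpl downwards each gene's range overlapped that of the next, so that neighbours in this order could not be separated beyond their spread.

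The droplet proteins varied widely among libraries of the same group. Plin1, which coats the droplet and gates lipolysis, measured 0.571, 3.38 and 0.450 CPM in the PBS libraries (replicates 1, 2 and 3), 2.31, 7.05 and 1.45 in H-151, and 1.60, 2.07 and 3.04 in SR-717. Cidec, which fuses lipid droplets, measured 0.171, 2.92 and 0.112 CPM in PBS, 1.62, 4.59 and 0.889 in H-151, and 1.96, 0.845 and 3.04 in SR-717. For both genes PBS replicates 1 and 3 were the lowest of all 9 libraries and H-151 replicate 2 the highest, while PBS replicate 2 lay among the treated libraries. Plin4, a coat protein of small droplets, measured 13.0, 23.5 and 4.50 CPM in PBS, 13.5, 28.6 and 17.7 in H-151, and 10.1, 16.5 and 23.01 in SR-717. H-151 replicate 2 was again the highest and PBS replicate 3 the lowest, and the groups overlapped.

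The secreted proteins showed a similar order of libraries. Adipoq measured 2.11, 8.12 and 3.48 CPM in PBS, 7.75, 19.9 and 7.78 in H-151, and 4.60, 11.8 and 8.18 in SR-717. In all groups replicate 2 was the highest library for Adipoq. Cfd measured 3.71, 20.0 and 2.98 CPM in PBS, 16.5, 46.4 and 10.0 in H-151, and 22.9, 14.3 and 28.0 in SR-717. PBS replicate 2 exceeded 2 of the H-151 libraries and 1 of the SR-717 libraries, so that the groups overlapped. Retn, resistin, rested on 1 to 21 counts a library, from 0.0562 CPM in PBS replicate 3 to 1.04 in H-151 replicate 2. Lep, leptin, rested on 0 to 8 counts a library, with no count in H-151 replicate 3, which allows up to 3 counts. It passed the filter on low counts in no comparison.

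Fabp4, Lpl and Pparg behaved differently. Fabp4 measured 130, 135 and 125 CPM in PBS, 133, 142 and 178 in H-151, and 97.9, 153 and 150.8 in SR-717. Lpl measured 86.1, 67.0 and 83.5 CPM in PBS, 70.3, 62.0 and 147 in H-151, and 108, 109 and 75.3 in SR-717. Pparg measured 4.05, 6.98 and 7.87 CPM in PBS, 6.08, 5.72 and 6.39 in H-151, and 4.13, 6.66 and 5.49 in SR-717. None of these was lowest in PBS replicate 3 or highest in H-151 replicate 2, and Pparg was in fact highest in PBS replicate 3.

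**Figure D1:**
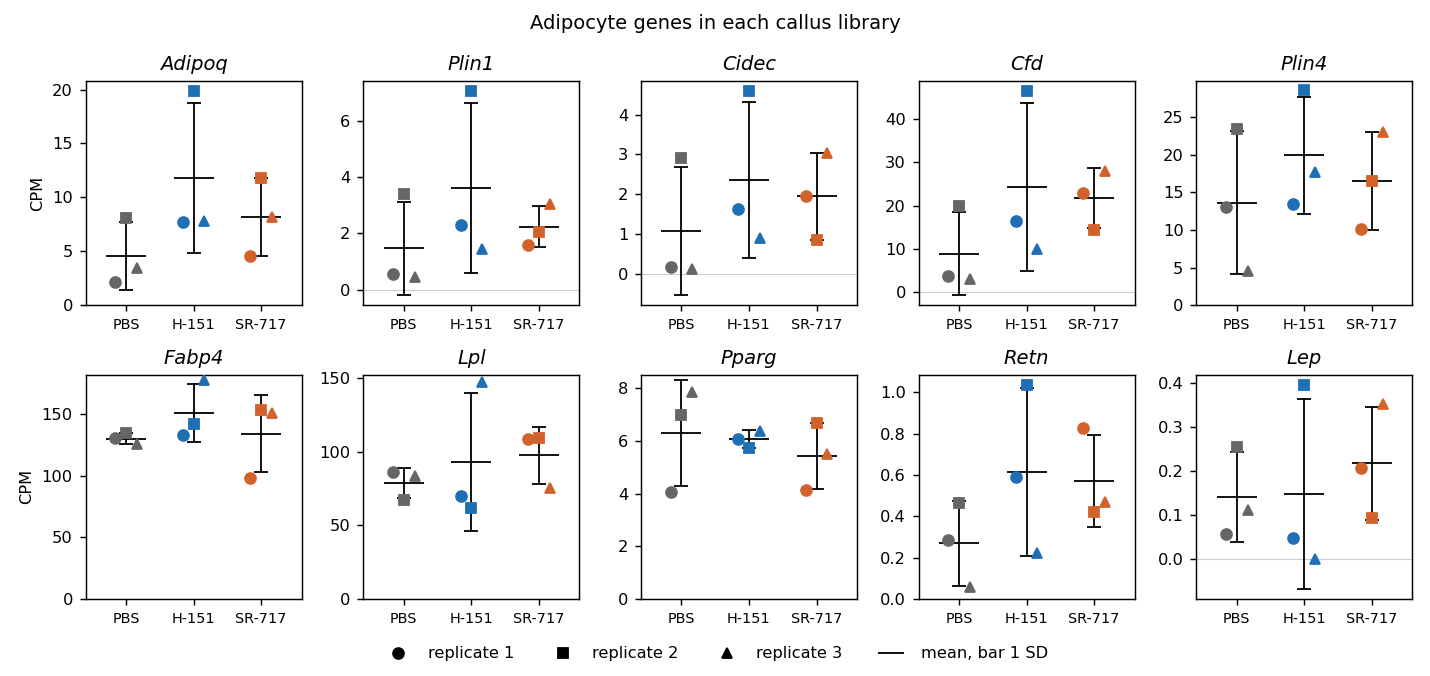
Each panel plots 1 adipocyte gene, with the CPM of every library on the vertical axis (a scale of its own for each gene) and the 3 groups on the horizontal axis. Circles, squares and triangles are replicates 1, 2 and 3, the horizontal mark is the group mean and the bar 1 SD (n = 3). H-151 replicate 2 is at the top for Adipoq, Plin1, Cidec, Cfd, Plin4, Retn and Lep, and the groups overlap in every panel.

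The size of this spread was taken as the ratio of the highest to the lowest library, with a 95% exact interval that covers counting error only. It was 40.8 for Cidec (10.98 to 342, on 93 against 2 counts), 15.7 for Plin1 (7.75 to 37.0), 15.6 for Cfd (11.8 to 21.0), 9.40 for Adipoq (6.71 to 13.6) and 6.36 for Plin4 (5.03 to 8.14). It was 2.37 for Lpl (2.22 to 2.54), 1.94 for Pparg (1.45 to 2.62) and 1.82 for Fabp4 (1.72 to 1.92). Retn, with 21 against 1 counts, had a ratio of 18.4 and an interval from 2.96 to 762, too wide to place it. The 14294 genes that passed the filter over the 9 libraries had a median SD of 0.31 in log2 CPM, and the SD was 1.55 for Cidec (percentile 98.6 of these genes), 1.29 for Cfd (97.4), 1.15 for Plin1 (96.2) and 0.94 for Adipoq (93.2). Retn had 0.85 (91.2) and Plin4 0.79 (89.8). Lpl at 0.40 (64.0), Pparg at 0.32 (52.2) and Fabp4 at 0.24 (36.2) lay lower in the same distribution. Low counts can raise this SD, which bears on Cidec, Plin1 and Retn.

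Of the genes with a large spread, Cidec, Cfd and Plin1 rose and fell together over the 9 libraries, while Adipoq, Retn and Plin4 followed less closely. Pearson's r and Spearman's rho of log2 CPM were computed for the 45 pairs of the 10 genes, with exact two-sided permutation p-values adjusted by Benjamini-Hochberg over the 45 pairs. Cidec and Cfd had r = 0.98 (adjusted p = 0.00174, exact permutation) and rho = 0.97 (adjusted p = 0.00744, exact permutation). Without the libraries farthest from the median, PBS replicates 1 and 3, r was 0.92. Plin1 followed Cidec with r = 0.95 (adjusted p = 0.00397, exact permutation) and Cfd with r = 0.95 (adjusted p = 0.00537, exact permutation), and these were 0.92 and 0.89 without the 2 farthest libraries. Retn followed Cfd with r = 0.88 (adjusted p = 0.0178, exact permutation), or 0.84 without PBS replicates 1 and 3. Adipoq followed Plin1 with r = 0.89 (adjusted p = 0.0195, exact permutation), or 0.76 without H-151 replicate 2 and PBS replicate 1. Other pairs leaned more on their 2 farthest libraries. Without them r went from 0.80 to 0.43 for Plin1 with Retn, from 0.76 to 0.51 for Adipoq with Cidec and from 0.80 to 0.55 for Adipoq with Cfd. For Plin4 it went from 0.77 to 0.42 with Cidec, 0.75 to 0.30 with Cfd, 0.66 to -0.37 with Retn and 0.84 to 0.61 with Plin1, but from 0.69 up to 0.84 with Adipoq.

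Of the 45 pairs, 9 passed an adjusted p of 0.05 for r and 3 for rho, and these 3 were among the 9. On deviations from each group's mean, r was 0.98 for Cidec with Cfd, 0.96 for Plin1 with Cfd and 0.84 for Adipoq with Plin1. Without SR-717 replicate 1 the same 3 values were 0.98, 0.99 and 0.90. Fabp4, Lpl and Pparg were in none of the 9 pairs, with r against the other genes from -0.29 to 0.50 for Fabp4, from -0.64 to 0.21 for Lpl and from -0.46 to 0.46 for Pparg. By rank Fabp4 stood less apart, with rho = 0.72 with Adipoq (adjusted p = 0.138, exact permutation) and 0.68 with Plin4 (adjusted p = 0.151, exact permutation). For Adipoq with Cidec and with Cfd rho was 0.67. Taken as deviations from the mean of the libraries that share a replicate number, r was 0.98 for Cidec with Cfd, 0.96 for Plin1 with Cfd and 0.86 for Adipoq with Plin1. The permutation p treats the 9 libraries as exchangeable, which same-numbered libraries may not be.

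**Figure D2:**
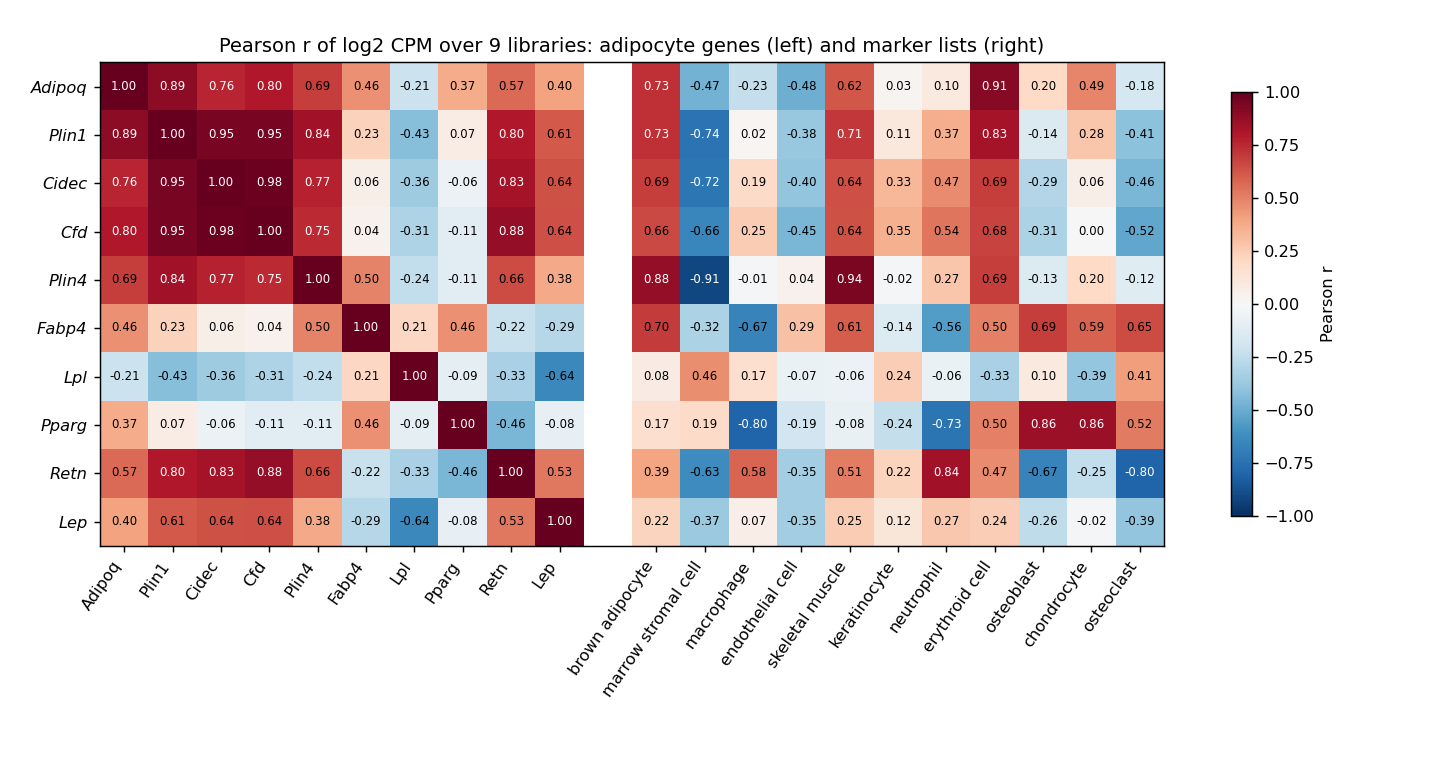
Each cell gives Pearson's r of log2 CPM over the 9 libraries, for each adipocyte gene (rows) against the 10 adipocyte genes (left block) and against the mean level of 11 marker lists of other cell types (right block). Red is positive and blue negative, and Adipoq, Plin1, Cidec, Cfd, Plin4 and Retn form a red block that Fabp4, Lpl and Pparg do not join. The r of Plin4 with Cidec, Cfd and Retn was lower without H-151 replicate 2 and PBS replicate 3.

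Lists of markers for 11 other cell types that callus can hold were set beside the adipocyte genes, which made 110 relations. Adipoq went with the erythroid list, mostly hemoglobin and red cell membrane genes, with r = 0.91 (adjusted p = 0.0314, exact permutation) and rho = 0.83 (adjusted p = 0.146, exact permutation). Without PBS replicate 1 and SR-717 replicate 1, the farthest on the erythroid axis, r was 0.85. On deviations from group means it was 0.91 and on deviations from the means of the replicate numbers 0.83. The erythroid level, however, fell into 3 libraries at or below a mean log2 CPM of 4.14 (PBS replicates 1 and 3 and SR-717 replicate 1) and 6 at or above 6.22, and within the 6 upper libraries r was 0.62. The pooled value thus rested in part on the gap between these sets of libraries.

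The summed CPM of the 9 erythroid genes in the table was 434, 9795 and 1491 in PBS, 8081, 14264 and 3874 in H-151, and 814, 8163 and 3610 in SR-717, with no gene of the list at 0 in any library. The ranges of the groups overlapped. All 9 erythroid genes had r above 0.7 with Adipoq, against 4.95% of the 14293 other genes kept, and all 9 also had it with Plin1 (5.90% of genes), while 3 did with Cidec (4.11%) and 1 with Cfd (3.68%). Plin1 and the erythroid level had r = 0.83 (adjusted p = 0.0611, exact permutation). Among the 10 genes most like Adipoq over the 9 libraries, by r alone, were Gid8 (0.95), Cd163 (0.95), Bfsp2 (0.94), Hbq1b (0.93), Ly6d (0.92), Slc38a5 (0.92), Hbb-bs (0.92) and Paqr9 (0.92). Hbb-bs is the adult beta globin and is on the erythroid list, Hbq1b is a globin and Cd163 is the hemoglobin scavenger receptor of macrophages.

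Plin4 had its highest r with skeletal muscle. Its level and the mean of 10 muscle genes, mostly sarcomere proteins, had r = 0.94 (adjusted p = 0.0314, exact permutation) and rho = 0.78 (adjusted p = 0.146, exact permutation), with r = 0.72 without PBS replicate 3 and SR-717 replicate 1 and 0.93 on deviations from the means of the replicate numbers. All 10 muscle genes had r above 0.7 with Plin4, against 6.17% of all genes kept, while 4 did with Plin1 and 1 with Adipoq. By rank the lists were less distinct, since rho was 0.78 also for Plin4 with the erythroid list and for Adipoq with the muscle list. Plin4 with the erythroid list had r = 0.69 (adjusted p = 0.201, exact permutation), or 0.80 without the 2 farthest libraries, and 4 of 9 erythroid genes had r above 0.7 with it. Adipoq with the muscle list had r = 0.62 (adjusted p = 0.273, exact permutation). The summed muscle CPM was 14195, 20828 and 4854 in PBS, 12599, 20911 and 17612 in H-151, and 10579, 21597 and 27143 in SR-717. PBS replicate 3 was therefore the lowest library for both muscle genes and Plin4. Plin4 also had r = 0.88 with the brown adipocyte list (adjusted p = 0.0461, exact permutation) and r = -0.91 with the marrow stromal list (adjusted p = 0.0546, exact permutation). The brown adipocyte list was mixed, since 3 of its 6 genes kept had r above 0.7 with Plin4 and the lowest r was -0.68. Ucp1, which defines the brown adipocyte, had no count in any library.

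Among the 11 lists, the largest positive values for Pparg were with the chondrocyte and osteoblast lists (r = 0.86 for each, adjusted p = 0.0546, exact permutation) and the most negative with macrophages (r = -0.80, adjusted p = 0.0849, exact permutation). For Retn the largest was with neutrophils (r = 0.84, adjusted p = 0.0859, exact permutation). None of these passed 0.05, and of the 110 relations 3 passed for r and 0 for rho at the adjusted level. Within the 11 lists, 0 genes passed an adjusted p of 0.05 in any treatment comparison by edgeR, and 3 passed the study's thresholds, named here after their values were seen. Of all genes tested, 0.756% (SR-717 against H-151), 0.519% (SR-717 against PBS) and 0.426% (H-151 against PBS) passed these thresholds. Dio2 of the brown adipocyte list was higher in SR-717 than in PBS, with 4 of the 5 genes tested in its list above 0. Cd163 of the macrophage list was higher in H-151 than in PBS, while 8 of the 10 genes of its list were below 0 (median -0.20). Sbsn of the keratinocyte list was lower in SR-717 than in H-151, while 4 of the 5 genes tested in its list were above 0 (median 0.38). The part that red marrow, muscle or other tissue in the dissected callus had in the levels of these genes was not tested.

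**Figure D3:**
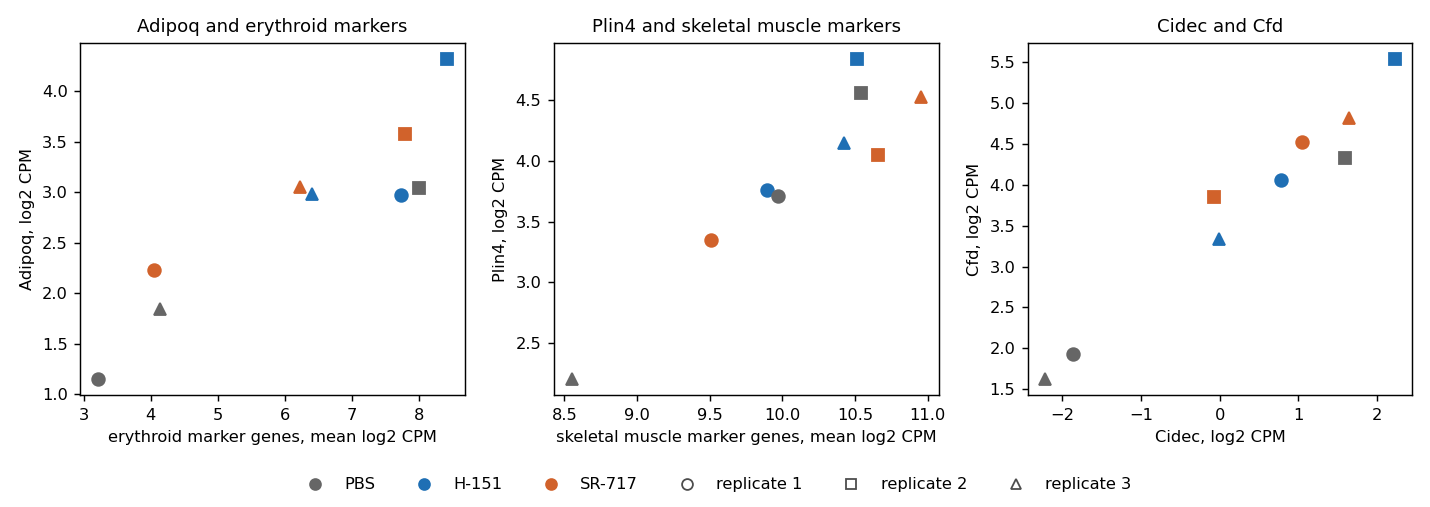
Scatter plots of log2 CPM with 1 point a library, colored by group and shaped by replicate number, show Adipoq against the mean of the erythroid markers, Plin4 against the mean of the skeletal muscle markers, and Cfd against Cidec. PBS replicates 1 and 3 lie at the lower left of the Adipoq and Cfd plots, PBS replicate 3 lies alone at the lower left of the Plin4 plot, and the erythroid axis has a gap between 4.14 and 6.22.

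The treatments were compared pairwise with edgeR's quasi-likelihood test on all genes that passed the filter. No gene of the whole table passed an adjusted p of 0.05 in any of the 3 comparisons, with smallest adjusted p of 0.996 (SR-717 against H-151), 1.00 (SR-717 against PBS) and 1.00 (H-151 against PBS). At an unadjusted p under 0.05, 146 (1.03%), 97 (0.689%) and 91 (0.646%) genes passed, and DESeq2 called 1 gene after adjustment, in SR-717 against H-151, which was not an adipocyte gene. The study's thresholds, an unadjusted p under 0.05 and a change of at least 1.5-fold, are also given. The 2 comparisons with PBS share its libraries.

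H-151 against PBS asked what blocking STING did to these genes. Of the 8 adipocyte genes tested, 0 passed the study's thresholds (0.426% of all 14085 genes tested did), 0 had an unadjusted p under 0.05, and in 0 of the 8 did the groups separate without overlap (3.87% of all genes). Adipoq had a mean of 11.8 CPM ± 6.99 (SD, n = 3) in H-151 and 4.57 ± 3.15 (SD, n = 3) in PBS, a log2 fold change of 1.36 (SE 0.59, unadjusted p = 0.0565, adjusted p = 1.00, edgeR). Cfd changed by 1.44 (SE 0.87), Plin1 by 1.26 (SE 0.91) and Cidec by 1.10 (SE 1.15) on the log2 scale. Plin4 at 0.54 (SE 0.57), Lpl at 0.24 (SE 0.34), Fabp4 at 0.21 (SE 0.15) and Pparg at -0.06 (SE 0.28) were smaller. The estimate was above 0 in 7 of the 8, against 44.2% of all genes, and their median was 0.82, against -0.02 over all genes tested.

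Libraries of the same replicate number deviated together in H-151 and PBS, so the fit with the replicate number as a block is given as well. The labels do not say what a shared number means, and the block was chosen from these same data. The SE and p-values of the blocked fit depend on that choice. In the blocked fit 4 of the 8 adipocyte genes passed the study's thresholds, against 1.86% of all genes, and 0 passed an adjusted p of 0.05. These were Adipoq (log2 fold change 1.43, SE 0.22, unadjusted p = 0.000848), Cfd (1.68, SE 0.22, unadjusted p = 0.000355), Plin1 (1.499, SE 0.32, unadjusted p = 0.00402) and Cidec (1.76, SE 0.59, unadjusted p = 0.0259), each with an adjusted p of 1.00 by edgeR. Within the numbers, H-151 minus PBS in log2 CPM was 1.83, 1.28 and 1.14 for Adipoq and 2.12, 1.22 and 1.71 for Cfd, above 0 in 3 of 3. It was also above 0 in 3 of 3 for Plin1 (1.84, 1.04 and 1.49), Cidec (2.65, 0.63 and 2.21), Retn, Plin4 and Fabp4. Of these, Plin4 (0.05, 0.28 and 1.95) and Fabp4 (0.03, 0.08 and 0.50) were small in numbers 1 and 2. For Lep, Pparg and Lpl the difference was above 0 in 1 of 3. The share of all genes above 0 in 3 of 3 was not computed. PBS replicate 2 was the PBS library with the highest level of Adipoq, Cfd, Plin1 and Cidec. Without it the unpaired fit called these 4 genes (4.91% of all genes), with Adipoq at 2.09 (SE 0.56, unadjusted p = 0.0103, adjusted p = 0.677, edgeR), Plin1 at 2.82, Cfd at 2.87 and Cidec, against PBS libraries of 3 and 2 counts, at 4.02. Leaving out the highest control library raises such estimates by construction, so that these calls are no separate support for the blocked fit. Leaving out any other single library called no adipocyte gene.

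The erythroid genes moved with this comparison: all 9 had an estimate above 0, with a median of 1.22, and 0 of 9 passed the study's thresholds in the unpaired fit and 6 of 9 in the blocked fit. Neutrophil genes were above 0 in 8 of 10, with a median of 0.61, and 6 of 10 passed in the blocked fit. Muscle genes had an estimate above 0 in 10 of 10, with a median of 0.39 and none past the thresholds in either fit. The part of these tissues in the values of the adipocyte genes was not tested.

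SR-717 against PBS asked what activating STING did. Of the 8 genes tested, 0 passed the study's thresholds (0.519% of 14070 genes), 0 had an unadjusted p under 0.05 and 0 separated without overlap (3.75% of genes). Cfd had 21.7 CPM ± 6.91 (SD, n = 3) in SR-717 and 8.88 ± 9.60 (SD, n = 3) in PBS, a log2 fold change of 1.28 (SE 0.76, adjusted p = 1.00, edgeR). Adipoq changed by 0.83 (SE 0.58), Cidec by 0.82 (SE 1.16), Plin1 by 0.58 (SE 0.80), Lpl by 0.31 (SE 0.21), Plin4 by 0.27 (SE 0.60), Fabp4 by 0.04 (SE 0.21) and Pparg by -0.21 (SE 0.34). The estimate was above 0 in 7 of 8, against 52.2% of all genes, with a median of 0.44 against 0.01 over all genes.

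In SR-717 and PBS the deviations of same-numbered libraries had r of 0.65, 0.34 and 0.14. Only 3 of 6 libraries correlated best with their own number. This was 6 of 6 in H-151 and PBS, and 2 of 6 in SR-717 and H-151, where the numbers did not pair the libraries. The pairing is therefore uncertain here, and so are the results of the block. With the block 1 of the 8 genes passed the study's thresholds, against 3.15% of all genes. This was Adipoq (log2 fold change 0.95, SE 0.25, unadjusted p = 0.0137, adjusted p = 0.999, edgeR). SR-717 minus PBS for Adipoq was 1.09, 0.53 and 1.21 in the pairs, while for Cfd it was 2.59, -0.48 and 3.19 and for Cidec 2.92, -1.67 and 3.87, so that replicate 2 went against the other pairs. Without PBS replicate 2 the unpaired fit called Adipoq, Cfd, Cidec and Plin1 (1.82% of all genes), with Adipoq at 1.55 (SE 0.52, unadjusted p = 0.0294, adjusted p = 1.00, edgeR), Plin1 at 2.11, Cfd at 2.69 and Cidec at 3.70, the last against PBS libraries of 3 and 2 counts. This library was the highest of PBS for these genes, so that leaving it out raises the estimates by construction. Leaving out any other single library called no adipocyte gene. In this comparison the erythroid genes had a median of 0.08, with 8 of 9 above 0, and the muscle genes a median of 0.57, with 10 of 10 above 0. Larger shifts were seen in the neutrophil genes, with a median of 1.67 and 10 of 10 above 0, and in the chondrocyte genes, with a median of -1.08 and 10 of 10 below 0. In the unpaired fit 0 genes of these 4 lists passed the study's thresholds, and in the blocked fit 10 of 10 neutrophil genes (higher), 8 of 10 chondrocyte genes (lower) and 0 of the erythroid and muscle genes did. Their part in the values of the adipocyte genes was not tested.

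SR-717 against H-151 set activation against inhibition. Of the 9 genes tested here, now with Retn, 0 passed the study's thresholds (0.756% of 14151 genes), 0 had an unadjusted p under 0.05 and 0 separated without overlap (5.18% of genes). Plin1 at -0.70 (SE 0.63) and Adipoq at -0.54 (SE 0.51) had the most negative log2 fold changes. Cidec at -0.30 (SE 0.72), Plin4 at -0.28 (SE 0.39), Fabp4 and Cfd at -0.18 (SE 0.22 and 0.58), Pparg at -0.17 (SE 0.24), Retn at -0.13 (SE 0.60) and Lpl at 0.06 (SE 0.36) were nearer 0. The estimate was above 0 in 1 of the 9, against 53.4% of all genes. Erythroid genes were 0 of 9 above 0 with a median of -1.08, chondrocyte genes 0 of 10 with a median of -1.01, and neutrophil genes 10 of 10 with a median of 1.25. None of these genes passed the study's thresholds, and their part in the values of the adipocyte genes was not tested. Without H-151 replicate 2 the values of Adipoq, Plin1, Plin4, Cidec, Cfd and Retn all turned positive, at 0.07, 0.24, 0.07, 0.61, 0.70 and 0.47. The median of the 9 was -0.18, against 0.02 over all genes.

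**Figure D4:**
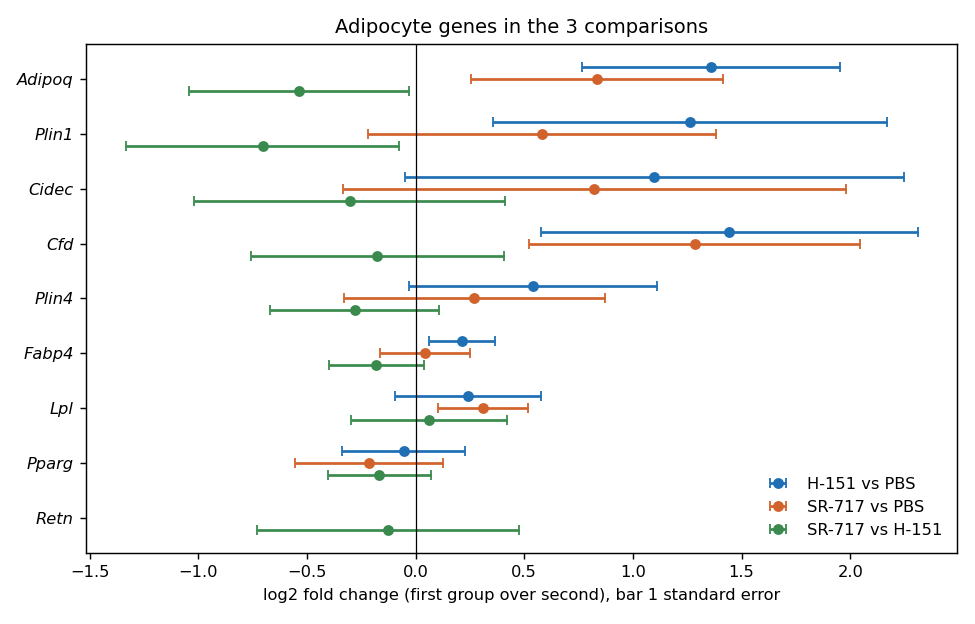
The horizontal axis gives the log2 fold change of the first group over the second from the unpaired edgeR fit, with a bar of 1 standard error, for the 9 adipocyte genes tested in at least 1 comparison (rows) and the 3 comparisons (colours). Adipoq, Plin1, Cidec and Cfd lie right of 0 in the comparisons with PBS, while Fabp4, Lpl and Pparg lie near 0. Cidec has the widest bar in each comparison.

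Other genes of adipocyte biology were examined in 7 further lists. In 6 of them, covering droplet and lipolysis proteins (14 genes tested), fatty acid uptake (10), fatty acid and triglyceride synthesis (16), adipogenic transcription factors (12), hormone receptors with insulin response (11) and inhibitors of adipogenesis (4), 0 genes passed an adjusted p of 0.05. At the study's thresholds 2 passed, both higher in H-151 than in PBS, where 0.426% of all genes passed. The blocked fit kept both in H-151 against PBS and added Lepr (lower), where it called 1.86% of all genes. In SR-717 against PBS it called Acsl1 (higher), Rbp4 and Wnt10b (lower), where it called 3.15% of all genes. These genes are named after their values were seen. Cd36, the fatty acid translocase, measured 51.3, 37.1 and 31.2 CPM in PBS, 65.0, 48.8 and 75.8 in H-151, and 52.4, 88.2 and 51.0 in SR-717. H-151 replicate 2 lay below PBS replicate 1, and the log2 fold change over PBS was 0.66 (SE 0.24, unadjusted p = 0.0285, adjusted p = 1.00, edgeR). Ebf2, a transcription factor of adipocyte precursors, measured 6.74, 7.36 and 5.00 CPM in PBS and 9.51, 9.37 and 11.5 in H-151, without overlap, a log2 fold change of 0.67 (SE 0.22, unadjusted p = 0.0203, adjusted p = 1.00, edgeR). The SR-717 libraries measured 8.88, 7.23 and 8.47 CPM for Ebf2, below all H-151 libraries and overlapping PBS. Cd36 lost its call without H-151 replicate 1 or 3 or PBS replicate 2 or 3, and Ebf2 without H-151 replicate 3 or PBS replicate 3 (Ebf2 at 0.52, unadjusted p = 0.0538, without PBS replicate 3 by edgeR).

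In the lists with no gene past the thresholds, the genes with the highest mean TPM are described. Cavin1 and Cav1, which build caveolae, had mean TPM of 191 and 183, and their log2 fold changes ran from -0.16 to 0.04 in the 3 comparisons. Scd2, a fatty acid desaturase, and Gpd1, which makes the glycerol backbone, had mean TPM of 116 and 62.5. Gpd1 was lowest in PBS replicate 3 at 22.03 CPM, against 64.0 to 163 in the other libraries, like Plin4. Adipor1, an adiponectin receptor, had a mean TPM of 131 and Rbp4, a retinol carrier, 120. Rbp4 was higher in all H-151 libraries (61.9 to 75.1 CPM) than in all SR-717 libraries (13.2 to 55.2 CPM), with a log2 fold change of -0.78 (SE 0.51, adjusted p = 0.996, edgeR) for SR-717 against H-151. Klf2 and Dlk1, which hold back adipocyte differentiation, had mean TPM of 93.6 and 46.4 and log2 fold changes from -0.21 to 0.13.

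In the resistin family, Retnlg was the abundant member, with a mean TPM of 385 against 1.03 for Retn. It is made by neutrophils and is on the neutrophil list too. Retnlg measured 80.8, 80.1 and 23.7 CPM in PBS, 130, 118 and 39.5 in H-151, and 466, 116 and 84.4 in SR-717. All SR-717 libraries lay above all PBS libraries, with a log2 fold change of 1.85 (SE 0.78, unadjusted p = 0.0535, adjusted p = 1.00, edgeR). With the replicate block Retnlg passed the study's thresholds in SR-717 against PBS (1.64, unadjusted p = 0.0120, adjusted p = 0.999, edgeR) and in H-151 against PBS (0.66, unadjusted p = 0.00120, adjusted p = 1.00, edgeR). SR-717 replicate 1, the library that stood apart, was the highest, and the neutrophil list had its highest sum there as well (15731 CPM, against 594 to 4730 in the other libraries). Retnla, made by alternatively activated macrophages and by fat, had 1.31, 0.761 and 0.731 CPM in PBS and 0.155, 0.375 and 0.642 in SR-717. Its log2 fold change was -1.25 (SE 0.57, unadjusted p = 0.0685, adjusted p = 1.00, edgeR), opposite in sign to Retnlg. Retnla rested on few counts, 13 to 23 a library in PBS and 3 to 11 in SR-717. The H-151 libraries ranged from 0.540 to 1.00 CPM for Retnla. Retnlb, the intestinal member, had 0 or 1 count in each library. The family shares sequence, and reads that fit several members could be split by the counting.

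By position on GRCm38, 8 of the 10 genes overlapped no other annotated gene. Plin4 on chromosome 17 (56100591 to 56109803, minus strand) overlapped Hdgfl2 on the other strand, and Pparg on chromosome 6 (115360951 to 115490399, plus strand) overlapped Gm44079 on the other strand. The library kit kept strand, but whether the counting used it is not given in the sources used here, so that the values of Plin4 and Pparg could hold reads of the partner.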

How the data were processed

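Poly(A)-selected, strand-specific, paired-end RNA-seq of 9 callus libraries (3 each of H-151, SR-717 and PBS) was sequenced and analysed by a service company. The authors deposited expected counts and TPM for 22054 genes, and 8.91% of the count values were not whole. The build was mm10 per the submitters' processing notes, while the aligner, counter and annotation are not given in the sources used here. Library sizes were 16987398 to 23272480 counts.

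Counts were rounded and tested with edgeR 4.0.16 (quasi-likelihood, TMM, default expression filter, Benjamini-Hochberg) on the 6 libraries of each comparison in R 4.3.3. The study's methods name DESeq, so DESeq2 1.42.0 (Wald test) was also fitted. TPM was used only to compare genes. Log2 CPM used a prior count of 2. Correlations used exact permutation of the 9 libraries (SciPy 1.17.1). The fit was tested on simulated data. Groups came from the labels. The members and lists were chosen with earlier results of these data known, and lists were given no test of their own.

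Named genes were the 10 members, in each pathway list those past an unadjusted p of 0.05 and 1.5-fold in any comparison or otherwise the 2 with the highest mean TPM, every resistin family gene, and the 10 genes with the highest r with Adipoq. Of these last 10, 2 are not reported here.

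Replicate numbers were checked by correlating, between groups, how libraries with a shared number departed from the mean of their own group. They were 0.30, 0.49 and 0.50 for H-151 with PBS and 0.65, 0.34 and 0.14 for SR-717 with PBS, all over 0.1, and the blocked fit is given there. They were 0.34, 0.06 and 0.08 for SR-717 with H-151. Of the 6 libraries, 6, 3 and 2 correlated best with their own number in these comparisons, so that the pairing is least certain where SR-717 is involved. The labels do not say what a shared number means. No 2 libraries agreed within sampling noise (smallest chi-square per gene 25.8).

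Alternatives tried were DESeq2 size factors, the DESeq2 Wald test, a 2-fold threshold, no filter, a filter at a mean count of 50, the replicate block, 1 fit of the 9 libraries and leaving out each library. Leaving out replicate 1 of both groups in SR-717 against PBS was chosen after seeing the data.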

Additional observations from a re-analysis of the deposited data

How the results depend on the processing

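No alternative put an adipocyte gene past an adjusted p of 0.05, and DESeq2's Wald test gave the only such gene of the table (1, in SR-717 against H-151). The counts of genes at the study's thresholds, in the order SR-717 against H-151, SR-717 against PBS and H-151 against PBS, were 107, 73 and 60. They became 69, 41 and 33 at a 2-fold threshold, 223, 194 and 127 with no filter, and 61, 37 and 28 with a mean count of at least 50. The DESeq2 Wald test gave 209 and 138 in the comparisons of SR-717, and 1 fit of all 9 libraries gave 171 and 176. Leaving out 1 library gave 64 to 661, 95 to 319 and 43 to 698, and leaving out replicate 1 of both groups, chosen after seeing the data, gave 118 in SR-717 against PBS. The replicate block gave 443 in SR-717 against PBS and 262 in H-151 against PBS, with 1 and 4 adipocyte genes among them. In SR-717 against H-151, where the numbers did not pair the libraries, the block gave 143 genes and no adipocyte gene, and 2 of 6 libraries correlated best with their own number. The block left the count at an adjusted p of 0.05 at 0 in the 3 comparisons.

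Of the adipocyte genes, 1 (Adipoq) passed the study's thresholds in H-151 against PBS with the DESeq2 Wald test and 1 (Adipoq) with no filter. Leaving out 1 library gave 0 to 4 in each comparison with PBS, the 4 without PBS replicate 2. Their median log2 fold change then ran from -0.51 to 0.07, 0.23 to 1.22 and 0.29 to 1.84 in the same order. Gene estimates that changed sign when 1 library was left out were, in SR-717 against H-151, Adipoq (-0.90 to 0.067), Plin1 (-1.08 to 0.24), Plin4 (-0.59 to 0.073), Cidec (-0.77 to 0.61), Cfd (-0.55 to 0.70), Retn (-0.51 to 0.47), Fabp4 (-0.29 to 0.0036), Lpl (-0.16 to 0.55) and Cd36 (-0.30 to 0.15). They were Plin4 (-0.15 to 0.90) and Fabp4 (-0.067 to 0.23) in SR-717 against PBS, and Lpl (-0.25 to 0.46), Pparg (-0.28 to 0.13) and Retnla (-0.43 to 0.090) in H-151 against PBS. With the replicate block Cfd (0.10) and Cd36 (-0.024) also changed sign in SR-717 against H-151. The cause was not tested. With 3 libraries a group, the common biological coefficient of variation was 0.296 to 0.388, and Retn (1 to 21 counts) and Lep (0 to 8) rested on few counts.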
